A study of Triticum aestivum with 45 samples.

Results

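Spikelets of the doubled haploid wheat line DH1 were compared with spikelets of the cultivar Superb 8 h after both had been sprayed with methyl jasmonate (MeJA). The comparison takes in the 3 DH1 and the 3 Superb MeJA libraries, 6 of the 45 RNA-seq libraries of the series, chosen by their genotype and treatment labels. Superb is a Canadian hard red spring bread wheat (Triticum aestivum). DH1, labelled GS-1-EM0040 with the pedigree CIMMYT11/Superb*2, comes from a cross of the donor CIMMYT11 with Superb as the recurrent parent. Doubled haploid lines are made by doubling the chromosomes of a haploid plant and are homozygous throughout, and DH1 is a single such line. Spikes at anthesis were wetted to run-off with 100 µM MeJA in water, and a spikelet of each spike went into RNA. The series also has DH1 and Superb spikelets taken untreated at 0 h and 8 h after water or salicylic acid (SA). A further doubled haploid line, DH2 (GS-1-EM0168, CM82036/Superb*2), was handled the same way, and every group had 3 libraries. Each sprayed group drew on 5 plants, per the labels, which do not say whether replicates were separate plants. The p-values therefore measure the spread between these libraries, which may be technical. For MeJA against water they measure only the part left after the replicate block described below.

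MeJA is the methyl ester of jasmonic acid, a plant hormone made from membrane lipids. Inside the plant it is converted to jasmonic acid and then to the isoleucine conjugate, which binds the receptor COI1 and leads to the breakdown of JAZ repressors. Transcription factors such as MYC2 are then free to switch on defence genes, among them proteinase inhibitors and enzymes of secondary metabolism, and jasmonates also act in the development of flowers. Bread wheat is a hexaploid with the subgenomes A, B and D, so that most genes have homoeologous copies on the matching chromosomes. A line bred by backcrossing carries stretches of donor chromosome in the background of the recurrent parent. Each gene identifier holds the gene's chromosome and its place in the gene order, but 0 of them matched the annotation used here, which is of the later assembly IWGSC CS RefSeq v2.1, so genes are given by identifier, without names or functions. For the same reason the spikelet label was not checked against marker genes of floral tissues. In bulk tissue, fewer cells of a type and less RNA per cell cannot be told apart.

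The DH1 MeJA libraries held 9739316, 16031329 and 10338222 counts in replicates 1 to 3, and the Superb MeJA libraries 10124654, 12991043 and 6446374. Genotype labels were checked with genes that separated the lines in the libraries without MeJA. The 34 genes found only in DH1 stood at 66.2 to 73.4% of their DH1 level in the DH1 MeJA libraries and at 0.566 to 0.768% in the Superb ones. The 29 genes absent from DH1 stood at 0.562 to 0.743% of their Superb level in DH1 and at 90.4 to 99.3% in Superb after MeJA. The 6 libraries thus carried the genes of their labelled genotype. Ethephon libraries were left out, since 1 Superb and 1 DH1 library of that treatment carried genes of another genotype. Same-numbered replicates entered the fit as blocks. Their deviations from the group means correlated across genes at r = 0.46, 0.32 and 0.055 for replicates 1, 2 and 3 after MeJA. The third pair thus hardly deviated together, and DH1 replicate 2 was closer to Superb replicate 3 (r = 0.37) than to its own number. After water, which enters every difference of response, r was 0.25, -0.026 and 0.015, so that pairs 2 and 3 did not deviate together. The untreated and SA pairs lay between 0.054 and 0.36. Counts of genes called between DH1 and Superb and of differences of response are therefore also given without the block. Those of DH2 against Superb and of MeJA against water are given with it only.

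DH1 and Superb differed after MeJA at a small share of genes, and often by a large factor. Of 62520 genes tested, 906 (1.45%) passed an adjusted p of 0.05 in edgeR's quasi-likelihood test with Benjamini-Hochberg adjustment over all tested genes. In DH1, 488 (0.781%) were higher and 418 (0.669%) were lower than in Superb. The absolute log2 fold change of these genes had a median of 1.66 and quartiles of 0.95 and 3.24, with the 101 genes that had 0 counts in 1 genotype set to their bound (3 counts over the 3 libraries). On that scale 381 genes differed by at least 2 and 155 by at least 4. The 3 DH1 libraries and the 3 Superb libraries did not overlap at 849 of the 906 genes (93.7%), against 6580 of all tested genes (10.5%). The median log2 fold change over all tested genes was -0.00378. Without the block 372 genes were higher and 309 lower. Leaving out DH1 replicate 2 left 324 higher, and leaving out Superb replicate 1 left 319.

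The largest differences were between a gene that was expressed and a gene that was not detected. TraesCS5D01G559300, near the end of chromosome 5D, stood at 28.3, 33.4 and 39.8 CPM (counts scaled to library size with TMM factors) in the 3 Superb MeJA libraries and had 0 counts in all 3 DH1 libraries. This is at least 383-fold lower (edgeR adjusted p = 3.45e-11), since 3 counts over the 3 DH1 libraries correspond to 0.0883 CPM. TraesCS6D01G392000 on 6D had 28.2, 24.6 and 23.3 CPM in Superb and 0 counts in DH1, at least 287-fold lower (adjusted p = 2.81e-11). Both were also low in DH1 in the 9 libraries without MeJA, with 0 and 3 counts in total, and both were expressed in DH2 after MeJA, at 11.5, 15.4 and 25.6 CPM and at 24.6, 26.7 and 23.7 CPM.

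In the other direction, TraesCS6A01G408200, near the end of 6A, had 25.2, 25.5 and 21.7 CPM in DH1 and 0 counts in the 3 Superb libraries, at least 225-fold higher (edgeR adjusted p = 2.58e-09). DH2 had 0 counts of it after MeJA. TraesCS2D01G147900 on 2D had 24.0, 23.8 and 23.3 CPM in DH1 and 0 counts in Superb, at least 221-fold higher (adjusted p = 4.73e-12). This gene was also on in DH2, at 22.6, 17.9 and 20.1 CPM. Its level in DH1 was 20.7 ± 3.13 CPM after water and 17.5 ± 1.06 CPM in untreated spikelets (SD, n = 3). TraesCS6A01G408200 stood at 53.6 ± 4.5 CPM in untreated DH1 spikelets and at 26.5 ± 5.02 CPM after water (SD, n = 3).

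**Figure D1:**
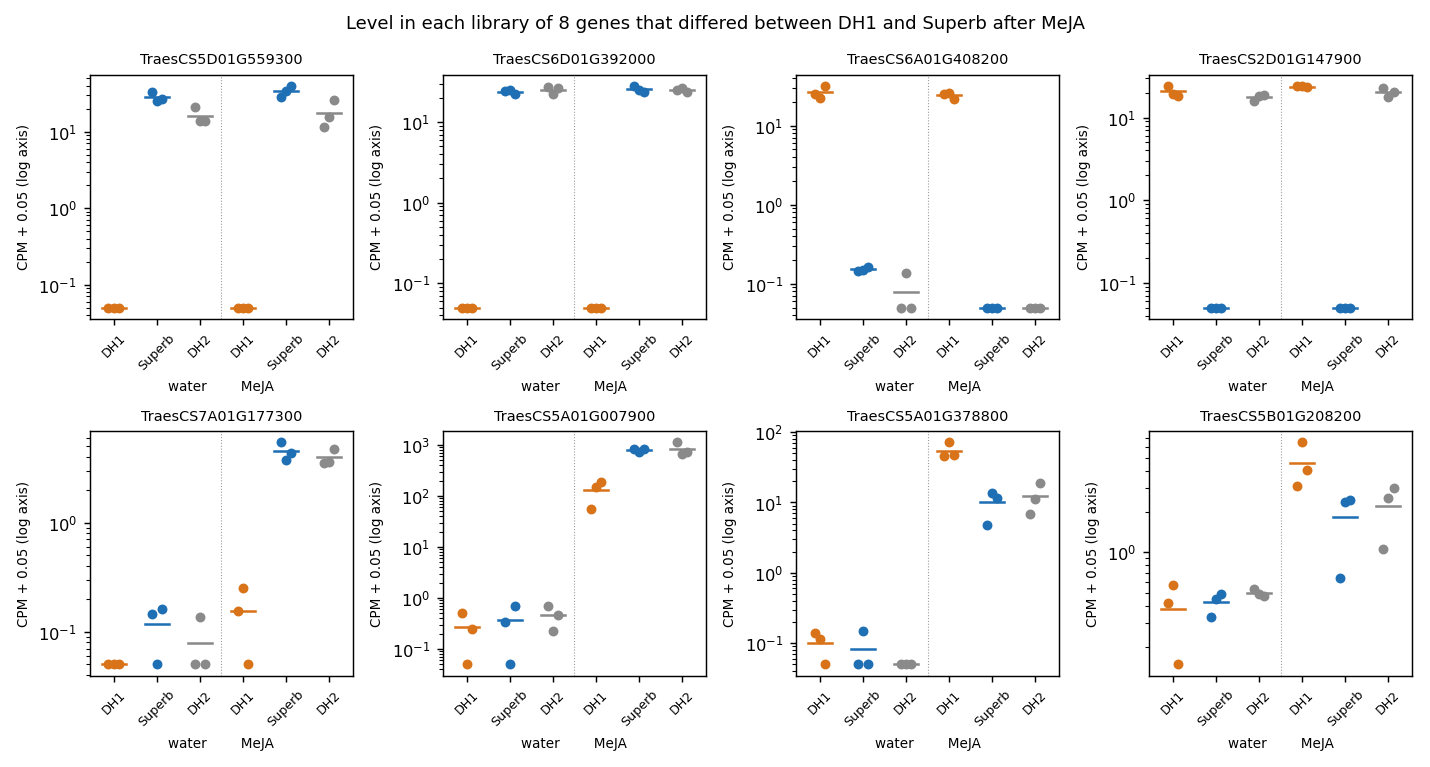
Level of 8 genes in each library, as CPM + 0.05 on a log axis, for DH1, Superb and DH2 after water (left) and MeJA (right). Points are replicates 1 to 3 and lines are group means. The genes at 0 counts in DH1 or Superb after MeJA were also at or near 0 there after water, whereas TraesCS5A01G007900, TraesCS5A01G378800 and TraesCS7A01G177300 were near 0 in all genotypes after water and stood apart after MeJA.

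Most of the differences after MeJA were also found without it. DH1 and Superb were compared over untreated, water and SA libraries together, 9 against 9. These libraries are not in the MeJA groups, but the same fit gave both comparisons, with a shared estimate of the spread. In the comparison without MeJA 3550 genes (5.68%) passed, 1546 higher (2.47%) and 2004 lower (3.21%) in DH1, and without the block 938 and 1103. Of the 906 genes called after MeJA, 749 (82.7%) were among them with the same direction, 407 higher and 342 lower, and without the block the share was 89.7%. These 749 are 21.1% of the 3550. Their median absolute log2 fold change was 1.90 after MeJA and 1.61 without it. Only 2 genes were called in opposite directions, 1 of them TraesCS5A01G191700, described below. After water alone, with 3 against 3 libraries, 1277 genes (2.04%) passed, 585 higher (0.936%) and 692 lower (1.11%), and without the block 385 and 397. These counts moved by over 1.5 times with the contrast's groups alone (1153 higher) and without DH1 replicate 1 (376 higher and 358 lower), DH1 replicate 3 (364 and 323), Superb replicate 1 (323 and 325) or Superb replicate 3 (403 lower).

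The reverse view gave the same picture for large differences. Of the 1220 genes that passed without MeJA with an absolute log2 fold change of at least 1, 1130 (92.6%) had the same sign after MeJA and 518 (42.5%) were called in that direction. Their median log2 fold change in that direction was 1.37 after MeJA and the median absolute value without MeJA was 1.74, with genes at 0 counts in 1 group set to their bound. The 2799 genes called only without MeJA were smaller differences, with a median absolute log2 fold change of 0.62, against 0.35 for the same genes after MeJA. There, 2351 (84.0%) kept their sign. The MeJA comparison had 3 libraries a side in place of 9, and no gene was called particular to either condition from these counts.

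**Figure D2:**
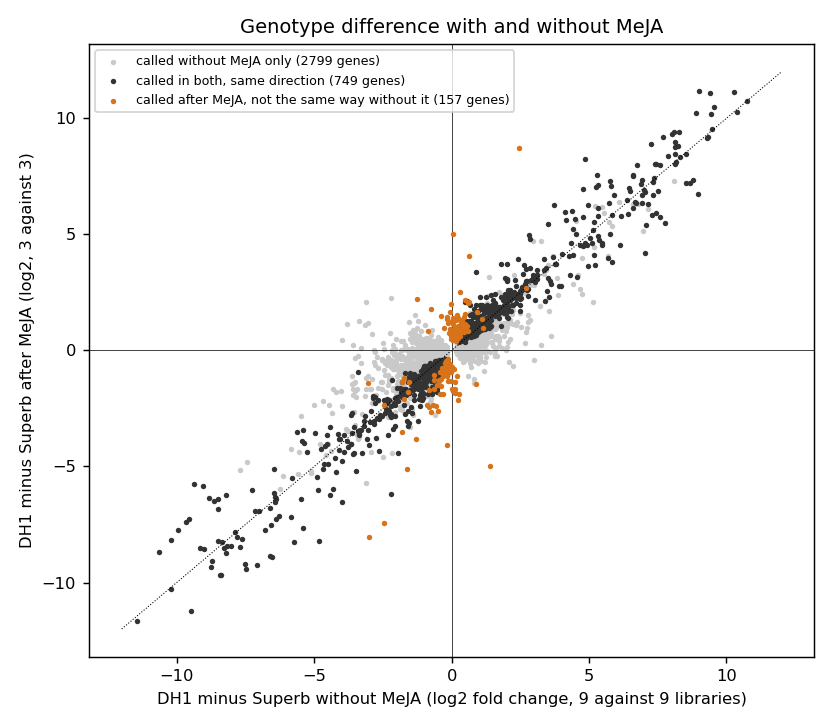
Log2 fold change of DH1 over Superb without MeJA (horizontal axis, 9 against 9 libraries) and after MeJA (vertical axis, 3 against 3 libraries) for every gene called in either, as fitted, so that the value of a gene with 0 counts in a group is not a bound. Grey points were called without MeJA only, black points in both with the same direction, and orange points after MeJA but not the same way without it. The 749 black points follow the diagonal, and most orange points lie near the vertical zero line.

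The remaining 155 genes (17.1% of the 906), 80 higher and 75 lower in DH1, were not called without MeJA. Their differences were smaller, with a median absolute log2 fold change of 1.06 after MeJA and 0.23 without it, and 129 of them had the same sign in both. Their median level was 7.51 CPM in the MeJA libraries and 4.29 CPM without MeJA, while the 749 shared genes had the same median level in both, 4.91 and 4.93 CPM. MeJA-responsive genes were listed from the DH2 libraries alone, so that the lists rest on neither DH1 nor Superb. Of all tested genes, 6.34% were MeJA-induced in DH2 and 3.47% were repressed. Among the 155 genes, 43 (27.7%) were induced and 7 (4.52%) repressed, and among the 749 shared genes 34 (4.54%) and 21 (2.80%). A gene near 0 CPM without MeJA can hardly be called there, so the way the 155 were chosen favours induced genes, and nothing is read from their share. For only 2 of the 155 did the test of the response itself, described below, find a difference between DH1 and Superb. That test too can hardly call a gene near 0 CPM after water in both genotypes.

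Much of the transcriptome responded to MeJA in both genotypes. MeJA against water changed 20206 genes (32.3%) in DH1, 11261 higher (18%) and 8945 lower (14.3%). In Superb it changed 16696 genes (26.7%), 8866 higher (14.2%) and 7830 lower (12.5%). The block takes any deviation shared by same-numbered libraries of a condition out of the spread behind these calls. No fit of MeJA against water was made without it, so the counts may be too high. The same holds for the single genes below. Of the 3965 genes induced at least 2-fold in DH2, the median log2 response was 1.98 in DH1 and 1.73 in Superb. Between the genotypes after MeJA, 37 of these genes were higher and 40 lower in DH1, which is 1.94% beside 1.45% of all genes, and their median log2 fold change was 0.0423. Of the 2170 genes repressed in DH2, 10 were higher and 18 lower in DH1 (1.29%), with a median of -0.109. The median responses of the repressed list were -1.41 in DH1 and -1.47 in Superb.

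The share of each library's counts that fell on the induced list was compared as a single value. It was 16.1, 21.2 and 19.6% in DH1 and 13.9, 20.6 and 22.5% in Superb after MeJA, in the order of replicates 1 to 3. The groups overlapped, and replicate 1 was lowest in both. The means were 18.9 ± 2.62% and 19.0 ± 4.50% (SD, n = 3), a difference of -0.0557 percentage points (exact two-sided permutation p = 1.0, where 3 against 3 libraries cannot go below 0.1). Paired by replicate number, the differences were 2.14, 0.624 and -2.93 percentage points (exact p = 1.0, with a smallest possible value of 0.25). After water the induced list took 4.80 ± 0.336% of counts in DH1 and 5.03 ± 0.479% in Superb. The repressed list took 1.39, 1.22 and 1.28% in DH1 and 1.83, 1.24 and 1.18% in Superb after MeJA (exact two-sided permutation p = 0.9). With single libraries left out, the difference in the induced share ran from -2.59 to 1.7 percentage points, on either side of 0.

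Individual genes of the induced list nevertheless differed several-fold in level after MeJA. At none of the 4 named here was the difference of the 2 responses called (edgeR interaction adjusted p of 0.966 to 0.997). The water libraries held few counts of them, and the SE of that difference ran from 0.70 to 8.03 on the log2 scale. The test could hardly call a difference at such genes, so the missing calls do not show that the responses were alike. TraesCS5A01G007900, near the start of 5A, reached 850, 742 and 834 CPM in Superb after MeJA and 55.5, 151 and 192 CPM in DH1. The groups did not overlap, and DH2 reached 1124, 676 and 734 CPM. The log2 fold change of DH1 over Superb was -2.64 (SE 0.39, edgeR adjusted p = 5.21e-05), and DESeq2 did not call it (adjusted p = 0.429). After water the gene was near zero in both, at 0.219 ± 0.232 CPM in DH1 and 0.316 ± 0.334 CPM in Superb (SD, n = 3). MeJA raised it in both genotypes (adjusted p = 2.45e-11 in DH1 and 3.95e-13 in Superb), and the difference of the 2 responses was not called (interaction adjusted p = 0.976). The water libraries held 7 counts of it in DH1 and 9 in Superb.

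TraesCS7A01G177300 had 5.37, 3.73 and 4.29 CPM in Superb after MeJA and 0.106, 0.203 and 0 CPM in DH1, where it had 4 counts in all. Its log2 fold change was -5.11 (SE 0.58, edgeR adjusted p = 4.33e-06). MeJA against water was called in Superb (edgeR adjusted p = 4.61e-07) and not in DH1 (0.166). DH2 was like Superb in level, at 3.49, 3.53 and 4.70 CPM. Without MeJA the 9 DH1 libraries had 0 counts and the 9 Superb libraries 3 counts, too few for a difference to be detectable there.

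TraesCS5A01G378800 on 5A was higher in DH1, at 45.1, 71.1 and 46.6 CPM against 4.77, 13.8 and 11.5 CPM in Superb after MeJA. Its log2 fold change was 2.52 (SE 0.28, edgeR adjusted p = 2.16e-05), and DH2 had 6.80, 11.1 and 18.8 CPM. It too was almost undetected after water, with 2 counts in DH1 and 1 in Superb over 3 libraries each. TraesCS5B01G208200 had 3.06, 6.44 and 4.0 CPM in DH1 and 0.596, 2.32 and 2.40 CPM in Superb (log2 fold change 1.42, SE 0.28, edgeR adjusted p = 0.0048). That call was lost in 7 of 19 alternatives, among them the fit without the block (adjusted p = 0.0581), DESeq2 (0.0709), and the fits without DH1 replicate 2 (0.149), Superb replicate 1 (0.0513) or Superb replicate 2 (0.0901). In all, 7 of the 303 tested genes under 0.1 CPM in both genotypes without MeJA were called after it, 4 higher and 3 lower in DH1. Of all tested genes, 1.45% were called after MeJA. Genes this low can hardly pass the filter on low counts except through groups where they are high, so nothing is read from this count.

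Whether MeJA acted differently in DH1 was tested gene by gene as the MeJA response of DH1 minus that of Superb, each against water. Only 8 genes (0.0128%) passed, 6 with a higher (0.0096%) and 2 with a lower response (0.0032%) in DH1, while 3178 (5.08%) had an unadjusted p under 0.05, where 5% would with no difference at any gene. In the fit without the block 0 genes passed by edgeR, and DESeq2 with the block called 15 higher and 5 lower. Leaving out a single library left 1 to 5 higher and 0 to 2 lower, and for every one of the 12 MeJA and water libraries except DH1 MeJA replicate 1 this moved the higher or the lower count by more than 1.5 times. Of the 8 genes, 3 lie on 5A, 2 on 6A, 2 on 2D and 1 on 5B, and 4 were MeJA-induced in DH2. In 3 of them DH1 and Superb differed after water but not after MeJA by the call, in 3 after MeJA but not after water, and in 2 after both.

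TraesCS5A01G191700 had the largest difference of response. After water it was lower in DH1, at 0.553, 1.36 and 1.07 CPM against 2.27, 4.08 and 4.22 CPM in Superb, and after MeJA higher, at 22.8, 54.5 and 44.5 CPM against 4.08, 10.4 and 13.2 CPM. The order of the genotypes was thus opposite in the 2 conditions, with no overlap in either. MeJA minus water between same-numbered libraries was 4.84, 5.09 and 5.08 on the log2 scale (0.25 CPM added) in DH1. In Superb it was 0.78, 1.29 and 1.59. The labels give no pairing of MeJA with water libraries, so these values show size only. The difference of the responses was 4.0 (SE 0.46, edgeR adjusted p = 0.000513). It held in 19 of 20 alternatives, the exception being the fit without the block (adjusted p = 0.386). In DH2 the gene stood at 2.94, 15.5 and 18.1 CPM after MeJA and 3.00, 4.47 and 6.46 CPM after water.

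TraesCS5A01G064200 was lower in DH1 in both conditions and rose more steeply there. It had 0.184, 0.129 and 0.0974 CPM in DH1 and 1.79, 2.09 and 1.78 CPM in Superb after water. After MeJA it had 3.27, 4.88 and 6.97 CPM against 5.86, 10.3 and 12 CPM, so that the groups came to overlap. The difference of the responses was 2.79 (SE 0.47, edgeR adjusted p = 0.0321), on 5 counts in the DH1 water libraries, and held in 3 of 20 alternatives.

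In the 2 genes with a lower response, MeJA lowered the level in DH1 (edgeR adjusted p = 0.00104 and 3.43e-06, in the order given here). TraesCS6A01G382500 on 6A fell from 19.7, 20.8 and 15.7 CPM after water to 8.24, 9.22 and 10.7 CPM after MeJA in DH1. In Superb, where it stood at 15.7, 16.2 and 14.9 CPM after water, it rose (adjusted p = 0.00195) and reached 32.6, 27.1 and 28.3 CPM, and in DH2 from 9.61, 9.90 and 10.3 CPM to 28.1, 33.3 and 27.1 CPM. The difference of the responses was -1.91 (SE 0.31, edgeR adjusted p = 0.0321), held in 7 of 20 alternatives. TraesCS2D01G036300 on 2D fell from 23.6, 24.1 and 25.8 CPM to 17.1, 13.5 and 14.8 CPM in DH1 and stood at 31.7, 30.2 and 28.2 CPM after water and 35.1, 31.8 and 30.9 CPM after MeJA in Superb (adjusted p = 0.409). Its difference of the responses was -0.82 (SE 0.13, edgeR adjusted p = 0.0321), held in 3 of 20 alternatives. DH2, at 22.5, 24.0 and 22.2 CPM after water and 20.1, 16.4 and 15 CPM after MeJA, was nearer to DH1 in level.

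**Figure D3:**
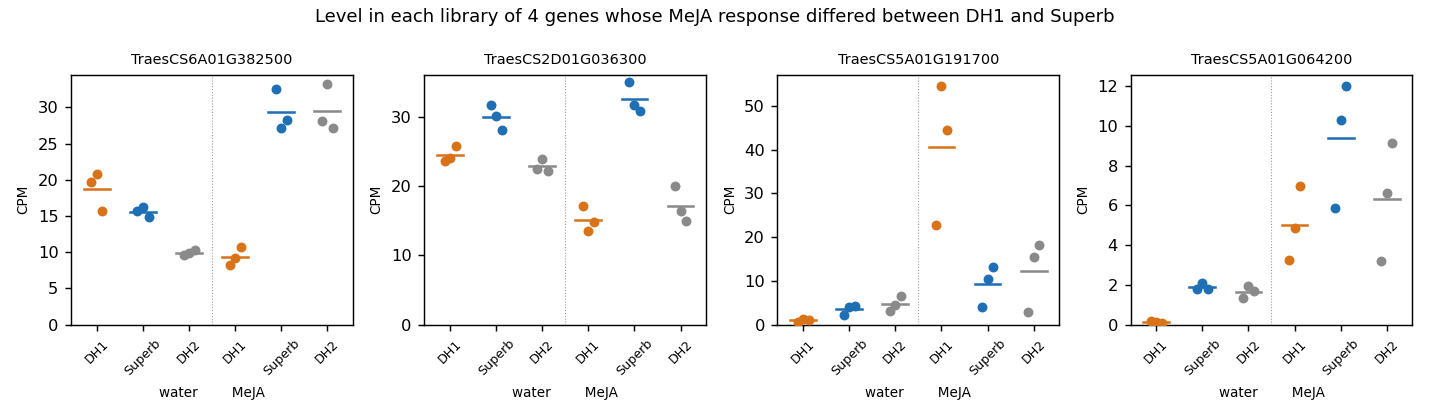
Level in CPM of 4 genes whose MeJA response differed between DH1 and Superb, in each library of DH1, Superb and DH2 after water (left) and MeJA (right). Points are replicates 1 to 3 and lines are group means. In TraesCS6A01G382500 the DH1 libraries go down from 15.7 to 20.8 CPM after water to 8.24 to 10.7 CPM after MeJA while Superb and DH2 go up, and in TraesCS5A01G191700 DH1 rises to 22.8 to 54.5 CPM.

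The genes that differed after MeJA were unevenly spread over the genome. Homoeologous group 6 had 252 calls (3.39% of its tested genes), group 5 had 277 (2.77%) and group 7 had 191 (2.17%), which is 27.8, 30.6 and 21.1% of all calls. Groups 1 to 4 lay between 0.359 and 0.666%. By chromosome, 6A was highest, with 122 of 2443 genes (4.99%), followed by 7A (4.24%), 6B (3.81%), 5A (3.64%) and 5D (2.90%). At the other end, 4D had 2 calls (0.0835%) and 1A had 6 (0.227%). The A subgenome held 430 calls (2.08%), the D subgenome 258 (1.24%) and the B subgenome 204 (1.00%). Neighbouring genes share their chromosome segment and homoeologues may share reads, so genes are not independent here and the shares are a description. 

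Along the chromosomes the calls stood close together. In windows of 50 neighbouring tested genes, 878 of 1237 windows (71.0%) had no call after MeJA, and the fullest had 56.0% of its genes called. Stretches of at least 4 windows in a row with at least 2 calls each, picked after seeing these values, covered 5.94% of the genes and 43.3% of the calls on chromosomes. There were 11 such stretches. Among them were the start of 5A (genes 1 to 500 of 3269, 44 calls), a part of 7A (genes 251 to 850 of 3018, 46 calls), and the ends of 5D, 6A and 6B. The others lay on 5A, 6A, 7A and 7D and did not reach a chromosome end. The last 293 tested genes of 6A had 66 calls, 49 higher and 17 lower, and the last 198 of 6B had 44.

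Block windows were defined from the comparison without MeJA, as those with at least 20% of genes called there with an absolute log2 fold change of at least 1. There were 17 of them on 5B, 5D, 6A, 6B, 7A and 7D. Inside, 212 of 843 genes (25.1%) were called after MeJA, against 680 of 60995 (1.11%) outside. Windows leave out the 682 tested genes, 14 of them called, whose identifiers give no chromosome. Of the 892 calls on chromosomes, 23.8% thus fell in 1.36% of the genes. The contrast that defined the blocks compared other libraries. Both sets of calls nonetheless came from the same fit of 36 libraries, with a shared estimate of the spread, so they are not fully separate. Of the genes called after MeJA and not without it, 10 of 843 (1.19%) lay inside and 143 of 60995 (0.234%) outside. Of the 8 genes with a different response, 3 lay inside.

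The densest block differed from the others in its direction. In genes 1951 to 2000 of 3342 on 5B, 28 of 50 genes were called after MeJA and all 28 were lower in DH1, with log2 fold changes from -5.25 to -0.556. The median over all 50 genes was -1.09, and 47 had a negative sign. Summed over the 50 genes, the level was 479, 510 and 473 CPM in the DH1 MeJA libraries and 805, 971 and 855 CPM in the Superb ones. DH2 libraries had 915, 916 and 899 CPM, close to Superb. The DH1 and Superb libraries did not overlap (exact two-sided permutation p = 0.1, the smallest that 3 against 3 allow). The 28 calls rest on the same libraries, so this separation is not a further result. Without MeJA the median over the 50 genes was -1.04, close to the value after it. A window outside the blocks also had calls of 1 direction only. In genes 601 to 650 of 3269 on 5A, 16 of 50 genes were called and all 16 were higher in DH1.

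In the other blocks, genes of both directions were mixed. At the end of 6A, genes 2201 to 2443, 58 of 243 genes were called, 48 higher and 10 lower in DH1. The sum over the 243 genes was 4443, 4409 and 4439 CPM in DH1 against 3820, 3691 and 3828 CPM in Superb. On 5D, genes 3101 to 3200 had 24 calls, 19 higher and 5 lower, and sums that overlapped, with 1420, 1499 and 1450 CPM in DH1 and 1247, 1368 and 1458 CPM in Superb. At the start of 6A, 16 of 50 genes were called, 7 higher and 9 lower, and the sums were 878, 828 and 840 CPM in DH1 against 1123, 1135 and 1139 CPM in Superb. On 7D, genes 101 to 150 had 14 calls, 11 of them higher.

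**Figure D4:**
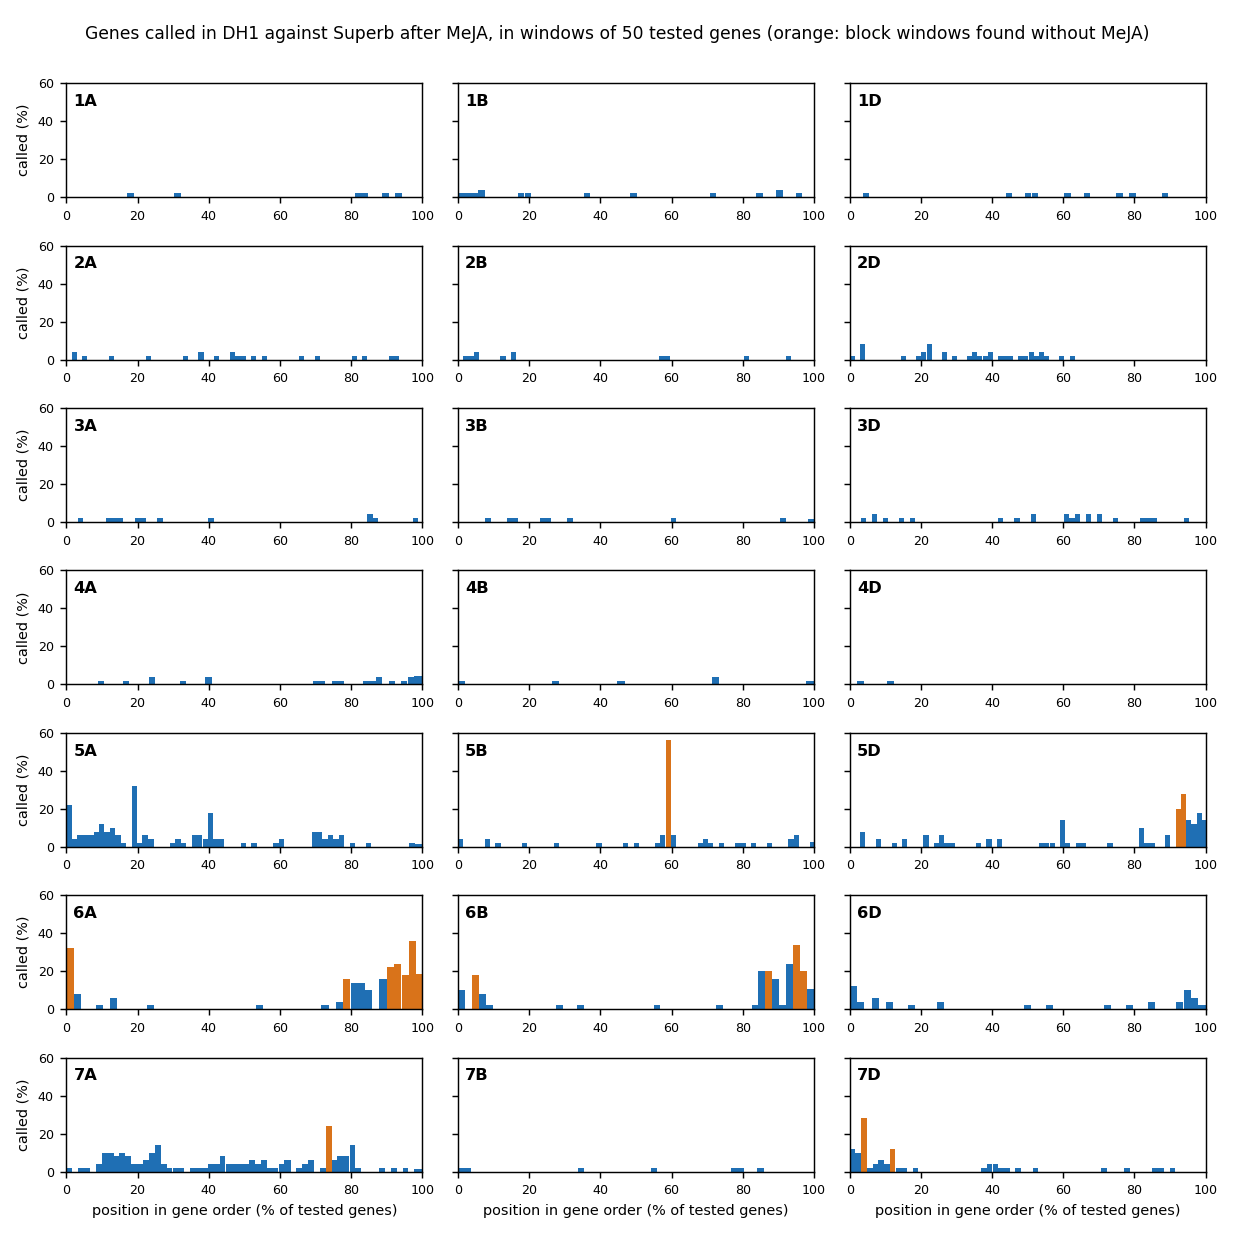
Percentage of tested genes called in DH1 against Superb after MeJA (vertical axis) in windows of 50 neighbouring tested genes along the gene order of each chromosome (horizontal axis, percent of its tested genes), with block windows defined without MeJA in orange and all others in blue. The highest bar, at 56.0%, is the block on 5B, and bars cluster on 5A, 5D, 6A, 6B and 7A while chromosomes of groups 1, 3 and 4 are nearly empty.

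Presence in 1 genotype and absence in the other accounted for the largest folds. After MeJA, 74 genes had at least 1 CPM in each DH1 library and at most 3 counts over the 3 Superb libraries, and 43 genes showed the reverse. The fit called 73 and 43 of them, and 72 and 42 were also called without MeJA. In 49 of the 74 and 31 of the 43, the same pattern held without MeJA, with at least 1 CPM in all 9 libraries of the expressing genotype and at most 9 counts over the 9 of the other. The 74 genes on in DH1 had a median level of 3.39 CPM and a highest level of 32.8 CPM, and 29 of them lay in block windows. DH2 after MeJA was silent at 55 of the 74 genes on in DH1 and expressed 4 of them. Of the 43 genes silent in DH1, DH2 expressed 41 and was silent at 0.

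DH2 against Superb after MeJA gave 1573 calls (2.52%), but that comparison uses the same Superb libraries. Without MeJA, where no library is shared with the DH1 comparison after MeJA, DH2 differed from Superb at 5222 genes (8.35%). Of the 906 genes that differed between DH1 and Superb after MeJA, 121 (13.4%) were called in DH2 in the same direction, and 45 in the opposite one. The 121 genes are 2.32% of the 5222. DH2 against Superb was not fitted without the block.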

How the data were processed

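Spikelet RNA was sequenced paired-end on an Illumina HiSeq 2500 from TruSeq RNA v2 LT libraries, per the labels' protocols. The authors deposited raw counts for 110790 gene identifiers in 1 column per library, and the values show no scaling. STAR 2.5.3a and, without its role, DESeq2 are named in the submitters' processing notes. The name of the deposited table points to IWGSC RefSeq v1.0. The counting program is not given in the sources used here, nor are the strand setting and treatment of multi-mapping reads, so reads of homoeologous or overlapping genes may be shared.

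Counts were fitted with edgeR 4.0.16 in R 4.3.3 (TMM, filterByExpr by group, glmQLFit with legacy = FALSE, glmQLFTest). The fit used 36 libraries (12 groups of 3, without the 9 ethephon libraries), group means and the replicate number within each condition as a block, with 16 residual degrees of freedom. It tested 62520 genes holding 99.71% of the counts. The block follows the definition of the comparison. The correlations given for the MeJA pairs were above 0.1 in 2 of 3, and each water pair lay below the MeJA pair of its number. Standard errors were derived from the log2 fold change and the square root of F. DESeq2 1.42.0 was an alternative. Replicates of the DH1 and Superb MeJA groups were distinct libraries (chi-square 3.67 to 13 per degree of freedom).

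MeJA-induced and MeJA-repressed genes passed MeJA against water in a separate fit of 12 DH2 libraries over 58348 genes, with an absolute log2 fold change of at least 1. Genes found only in 1 genotype had at least 5 CPM in its mean and at most 5% of that in the others, over untreated, water and SA libraries. Genes absent from DH1 had at least 5 CPM in the means of both Superb and DH2. Their DH1 mean was at most 5% of the lower of those means. Named genes have the 2 highest and 2 lowest log2 fold changes among genes called, with log2 mean CPM at or above 1 and groups that do not overlap. This rule was applied after MeJA and within the induced list among genes not called without MeJA. For the difference of responses, the mean was over the 12 MeJA and water libraries of DH1 and Superb. There the same-numbered MeJA minus water differences, and not the groups, had to be free of overlap. The comparison, lists and rules were chosen with earlier results of these data known. Folds against 0 counts use a floor of 3 counts over the group and cover counting error only. The steps were also run on simulated counts, with changes planted only at genes that were not near 0 counts. The outcome is not given here. That run does not bear on the weak pairing of replicates or on genes near 0 counts. Alternatives were no block, all 45 libraries, the contrast's groups alone, DESeq2, other size factors, no filter, a fold threshold, water with SA as the reference and leaving out libraries.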

Additional observations from a re-analysis of the deposited data

Results flagged for a closer look

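The MeJA response differed between DH1 and Superb at 8 genes by edgeR's test of the difference itself. Without the replicate block 0 genes passed. With it, 5.08% of tested genes had an unadjusted p under 0.05, where 5% would with no difference at any gene. The 4 that are named had log2 differences of response of 4.0 for TraesCS5A01G191700, 2.79 for TraesCS5A01G064200, -1.91 for TraesCS6A01G382500 and -0.82 for TraesCS2D01G036300 (DH1 minus Superb). In that order, the calls held in 19, 3, 7 and 3 of 20 alternatives.

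A signal appeared in libraries that the comparison does not use. In Superb ethephon replicate 1, the 34 genes found only in DH1 stood at 23.1% of their DH1 level, while the other 14 Superb libraries lay between 0.516 and 1.44%. In DH1 ethephon replicate 1, the 33 genes found only in DH2 stood at 13.6% of their DH2 level, while the other 14 DH1 libraries lay between 0.591 and 1.63%.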

How the results depend on the processing

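After MeJA, leaving out single libraries gave 319 to 503 higher and 302 to 436 lower genes, with 324 higher without DH1 MeJA replicate 2 and 319 without Superb MeJA replicate 1. Without replicate 1 of MeJA in all genotypes 319 were higher, and with the contrast's groups alone 265 were lower. Fitted without the replicate block, the comparison after MeJA gave 372 higher and 309 lower, after water 385 and 397, without MeJA 938 and 1103, and the difference of responses 0 and 0. The groups of the contrast alone gave 1153 higher after water, 1200 lower without MeJA and, for the difference of responses, 1 higher and 1 lower. DESeq2 gave 15 higher and 5 lower differences of response. Lower differences of response numbered 1 with all 45 libraries, with no filter and with an absolute log2 fold change of at least 1. Leaving out single libraries gave 1 to 5 higher and 0 to 2 lower differences of response, 323 to 682 higher and 323 to 770 lower after water (376 and 358 without DH1 water replicate 1, 364 and 323 without DH1 water replicate 3, 323 and 325 without Superb water replicate 1, and 403 lower without Superb water replicate 3), 1176 to 1748 and 1342 to 2020 without MeJA, and a difference of -2.59 to 1.7 percentage points in the induced share.

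The share of calls after MeJA also called without it in the same direction was 82.7%, 89.7% with no replicate block, 88.1% without replicate 1 of MeJA in all genotypes and 79.2 to 89.0% with single libraries left out. Windows of 100 genes gave 7 block windows and a share of 30% gave 6. At 2 CPM, 47 genes were on in DH1 only. Over the 12 named genes, 176 of 232 alternatives kept the call, 56 lost it and 0 reversed the sign. The cause of these changes was not tested.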
